A study of Caenorhabditis elegans with 2 samples.

Results

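ChIP regions of eGFP-tagged NHR-237 at transfer RNA (tRNA) genes of Caenorhabditis elegans were compared between the X chromosome and the 5 autosomes. Chromatin immunoprecipitation with sequencing (ChIP-seq) had been done on whole L2 larvae of mixed sex in 2 biological replicates, both from strain OP228, which carries unc-119(ed3) III and the integrated transgene wgIs228 with the tagged nhr-237. Both libraries form 1 group, every animal carries the transgene, and ChIP of worms without the tag was not analysed here, so binding of NHR-237 and ChIP signal that tRNA genes give without it cannot be told apart. In whole larvae, signal from few cells and weak signal from many cannot be told apart either. Each replicate list held 30000 regions called against a control and is labelled as peaks and background, so it includes background. A region was taken as lying at a tRNA gene when its summit was within 250 bp of the gene. By this rule 204 of the 30000 regions of replicate 1 and 184 of the 30000 of replicate 2 were members. They lay at 210 and 189 of the 612 nuclear tRNA genes, and 106 genes had a region in both lists.

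RNA polymerase III transcribes tRNA genes from promoters that lie inside the gene. The general factor TFIIIC recognises an A box and a B box, which encode parts of the D arm and the T arm of the tRNA, and recruits TFIIIB upstream of the start. Nuclear hormone receptors such as NHR-237 are zinc finger proteins of a family that is greatly expanded in C. elegans and are studied mainly as regulators of RNA polymerase II genes.

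The genes below include those with the strongest regions on X, and a pair of autosomal genes from among the first 6 in the same order, to show the gene and its internal promoter. Other genes named later are not printed. Gene sequences were read 5′ to 3′ on the gene's strand from the RefSeq copy of WBcel235, the assembly that equals ce11. Capitals mark the core of the B box, searched on the gene's strand as GTTCGANNC or GTTCAANNC, which cannot match at the same place.

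C18A11.t2, tRNA-Arg, chrX:8036685-8036757, minus strand: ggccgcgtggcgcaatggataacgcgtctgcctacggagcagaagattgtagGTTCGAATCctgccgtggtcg
R11.t1, tRNA-Tyr, chrX:16209769-16209852, minus strand: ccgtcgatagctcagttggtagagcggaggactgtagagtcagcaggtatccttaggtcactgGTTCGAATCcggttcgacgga
R04A9.t1, tRNA-Gln, chrX:410391-410462, plus strand: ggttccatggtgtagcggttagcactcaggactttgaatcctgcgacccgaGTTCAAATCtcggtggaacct
W02H3.t1, tRNA-Leu, chrX:11095673-11095754, plus strand: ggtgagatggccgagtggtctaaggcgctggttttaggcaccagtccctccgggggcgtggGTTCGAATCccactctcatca
C33G3.t2, tRNA-Lys, chrX:14063946-14064018, minus strand: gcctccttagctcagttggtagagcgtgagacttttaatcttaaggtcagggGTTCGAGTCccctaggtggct
F46G11.t2, tRNA-Pro, chrX:5801211-5801282, minus strand: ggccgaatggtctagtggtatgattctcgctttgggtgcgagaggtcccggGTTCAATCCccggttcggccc
F15G9.t1, tRNA-Ala, chrX:9743589-9743660, plus strand: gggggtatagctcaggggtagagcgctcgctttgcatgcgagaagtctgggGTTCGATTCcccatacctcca
F15G9.t2, tRNA-Ala, chrX:9743747-9743818, plus strand: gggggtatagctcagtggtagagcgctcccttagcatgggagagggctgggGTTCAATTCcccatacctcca
F44A2.t1, tRNA-Ala, chrV:9318202-9318273, plus strand: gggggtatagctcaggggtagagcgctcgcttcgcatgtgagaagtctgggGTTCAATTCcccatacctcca
W09G10.t1, tRNA-His, chrII:3521487-3521558, minus strand: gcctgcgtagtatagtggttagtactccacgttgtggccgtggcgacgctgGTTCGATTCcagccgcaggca

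The B box core was found in 587 of the 612 tRNA genes (95.9%), in 97.1% of those on X and 94.9% of those on autosomes, and in 104 of the 106 genes with a region in both lists. Of the 1392672 adjoining windows of 72 bp, the median tRNA gene length, that make up the nuclear chromosomes, 0.75% held it on the plus strand.

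X carried 276 of the 612 tRNA genes (45.1%), or 15.6 per Mb, and the autosomes carried 336, at between 3.73 per Mb on II and V and 4.64 per Mb on III. This is the baseline for a count of regions. In replicate 1, 96 of the 204 regions at tRNA genes lay on X (47.1%), and in replicate 2 it was 87 of 184 (47.3%), both close to the share of genes. In the stricter lists made from both libraries the share on X was higher, with 54 of 89 regions of the pooled list (60.7%) and 10 of the 12 peaks that passed the authors' irreproducible discovery rate (IDR) threshold (83.3%).

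Counted by gene over the full lists, tRNA genes on X had a region somewhat more often, and no comparison passed the threshold. In replicate 1 a region lay at 100 of 276 tRNA genes on X (36.2%, exact binomial 95% interval 30.6 to 42.2) and at 110 of 336 on autosomes (32.7%, 27.7 to 38.0). The odds ratio was 1.17 (two-sided Fisher's exact test, Benjamini-Hochberg adjusted over 3 comparisons, p = 0.393). In replicate 2 the shares were 95 genes on X (34.4%, 28.8 to 40.4) and 94 on autosomes (28.0%, 23.2 to 33.1), with an odds ratio of 1.35 (Fisher's exact adjusted p = 0.142). Both lists held a region at 59 genes on X (21.4%, 16.7 to 26.7) and 47 on autosomes (14.0%, 10.5 to 18.2), an odds ratio of 1.67 that did not pass the threshold of 0.05 (Fisher's exact adjusted p = 0.0546, unadjusted p = 0.0182). Intervals and tests here cover counting error over genes only, and genes that share a region are not independent.

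The shares in the genome at large were lower on X and on autosomes. Of all windows of 72 bp on X, 17.0% had a summit within reach in replicate 1, 16.4% in replicate 2 and 4.35% in both. On autosomes the same shares were 16.3%, 16.2% and 4.24%. Windows on X and on autosomes thus had nearly the same shares. Starts of protein-coding genes had a region in both lists in 4.28% of 2731 genes on X and 5.90% of 17242 on autosomes, the opposite order to that of tRNA genes. The difference between the 2 gene classes was not tested.

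The difference grew when only strong regions were counted. Among the 1000 regions of highest signal in each list, replicate 1 had a region at 27 tRNA genes on X (9.78%) and 6 on autosomes (1.79%), with an odds ratio of 5.96 (Fisher's exact adjusted p = 4.68e-05). Replicate 2 had 18 on X (6.52%) and 7 on autosomes (2.08%), with an odds ratio of 3.28 (Fisher's exact adjusted p = 0.00704). Both lists placed 13 genes on X (4.71%) and 3 on autosomes (0.893%) there, against 0.188% of windows on X and 0.154% on autosomes (Fisher's exact adjusted p = 0.00605). At the 350 highest regions the counts in both lists were 5 on X and 0 on autosomes, where a count of 0 in 336 genes allows up to 1.09% (exact binomial 95% limit). At the 3000 highest the odds ratio was 2.69 in replicate 1 and 1.74 in replicate 2, and at the 10000 highest 1.45 and 1.92. With tRNA genes less than 500 bp apart merged into 1 locus, 10 of 211 loci on X and 3 of 305 on autosomes were among the 1000 highest of both lists (odds ratio 5.01; Fisher's exact adjusted p = 0.0130). Most genes at IDR peaks are among these strong ones, and that IDR peaks at tRNA genes lie mainly on X was known when the comparison was chosen. The tests on strong regions are therefore not independent evidence.

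**Figure D1:**
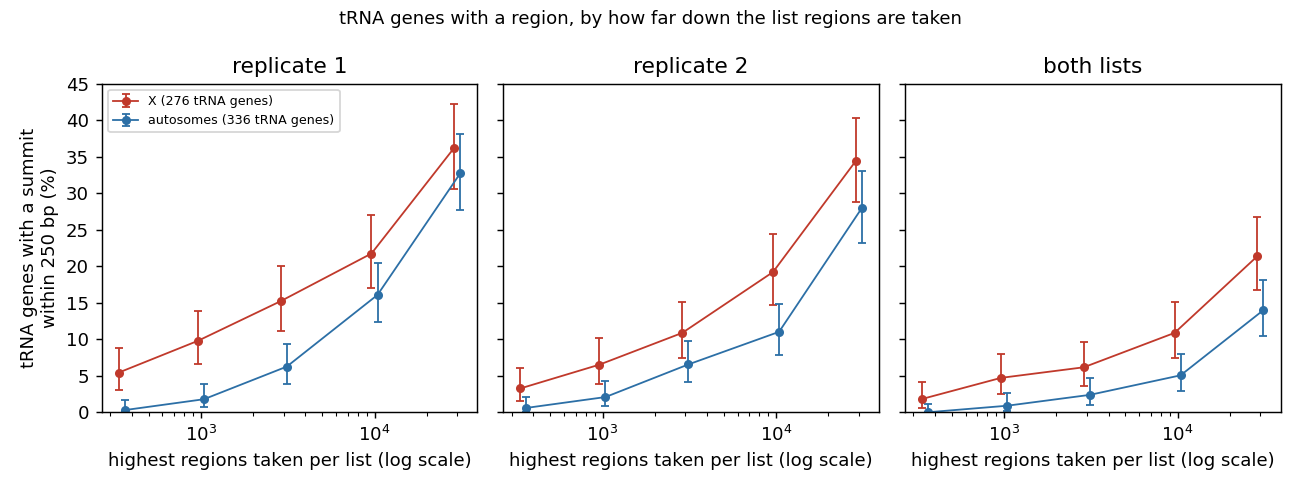
Percent of tRNA genes on X (red, 276 genes) and autosomes (blue, 336 genes) with a summit within 250 bp, when the 350, 1000, 3000, 10000 or all 30000 highest regions of each list are taken (log axis), for replicate 1, replicate 2 and both lists. Points are shares and bars are exact binomial 95% intervals. In replicate 1 the shares are 9.78% and 1.79% at 1000 regions and 36.2% and 32.7% at 30000.

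The pooled and IDR lists, which the authors made from the same 2 libraries, are not independent of these counts. The pooled list had a region at 62 tRNA genes on X (22.5%) and 36 on autosomes (10.7%), against 3.76% of windows on X and 3.66% on autosomes (odds ratio 2.41; Fisher's exact adjusted p = 0.000288). An IDR peak lay at 13 genes on X (4.71%) and 2 on autosomes (0.595%), against 0.235% and 0.189% of windows (odds ratio 8.25). At C18A11.t2 and F41D9.t3 on X the peak interval did not overlap the gene. These genes counted only through summits 241 and 234 bp away. The 13 genes on X shared 10 peaks, and counted by locus the IDR list held 10 of 211 on X and 2 of 305 on autosomes (odds ratio 7.54). No p is given for the IDR counts, which describe the pattern that prompted the comparison.

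Shares varied among the autosomes, within wide intervals. The share of tRNA genes with a region in both lists was 21.1% on II (12 of 57), 15.5% on IV (11 of 71), 15.2% on I (10 of 66), 10.9% on III (7 of 64) and 8.97% on V (7 of 78), compared with 21.4% on X. In replicate 1 chromosome II stood above X, with 29 of its 57 genes (50.9%), and in replicate 2 it held 20 (35.1%). For IDR peaks the order was different. Both autosomal genes were on I, and II, III, IV and V held none.

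**Figure D2:**
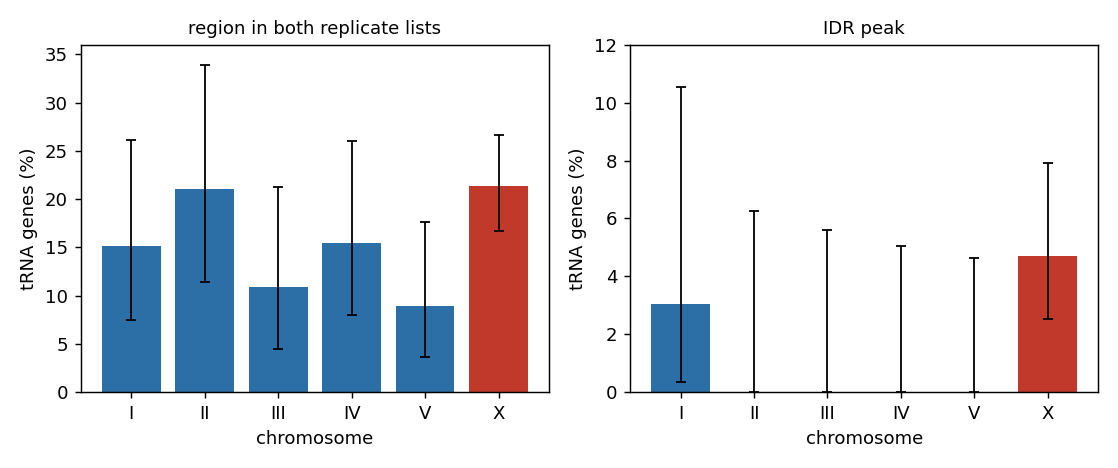
Percent of the tRNA genes of each chromosome with a region in both replicate lists (left) and with an IDR peak (right). Bars are shares, with exact binomial 95% intervals as whiskers, X in red and autosomes in blue. X (21.4%) and II (21.1%) stand level on the left, and on the right only X (13 genes) and I (2 genes) have peaks.

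The region with the highest signal at a tRNA gene lay beside C18A11.t2, a tRNA-Arg gene whose sequence is printed above. Its signal, the authors' enrichment over the control on the scale of each list, was 196 in replicate 1 (rank 10) and 106 in replicate 2 (rank 8). The IDR peak there had a signal of 294. Its summit lay 241 bp on the 3′ side of the gene, with 247 bp in replicate 1 and 239 bp in replicate 2. The gene was therefore a member by a narrow margin. The other genes just inside the limit in replicate 1 were F11A1.t1 at 248 bp and Y71H2AM.t1 at 250 bp, and the first outside was Y105C5B.t1 at 252 bp. In replicate 2 the genes on either side of the limit were Y65A5A.t3 at 247 bp and H08J11.t2 at 254 bp. The gene is intergenic, and the closest protein-coding start is 4556 bp away.

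The next genes on X had lower signals and, except for F41D9.t3 in replicate 2, summits closer to the gene. R11.t1, for tRNA-Tyr, had signals of 46.2 and 33.6 (ranks 121 and 58), with summits 63 and 2 bp upstream. R04A9.t1, a tRNA-Gln gene in an intron, had 46.6 and 31.8 (ranks 119 and 69), with summits 159 and 151 bp upstream. The divergent pair M02F4.t1 for tRNA-Gly and M02F4.t2 for tRNA-Glu shared a region with signals of 46.7 and 22.1 (ranks 115 and 172), whose summit lay between the genes in replicate 1 and in replicate 2. W02H3.t1 for tRNA-Leu had 33.5 and 17.4 (ranks 246 and 433), with a summit 6 bp upstream in replicate 1 and inside the gene in replicate 2. C33G3.t2 for tRNA-Lys had 38.0 and 16.5 (ranks 186 and 559), and its summits were inside the gene and 12 bp upstream. In the pair F15G9.t1 and F15G9.t2, both for tRNA-Ala, the shared region had signals of 22.4 and 20.4 (ranks 761 and 224). F46G11.t2 and F46G11.t1, tRNA-Pro genes of identical sequence, shared one with 35.7 and 14.6 (ranks 213 and 978). IDR peaks also lay at F41D9.t3 for tRNA-Asn, with 17.8 and 19.4 (ranks 1976 and 284), and at C28G1.t1 for tRNA-Glu, which overlaps a protein-coding exon, with 35.6 and 11.3 (ranks 215 and 3023). For all of these but F41D9.t3 the signal value was larger in replicate 1, and the 2 scales are not common. The strongest summits at F41D9.t3 lay 134 bp upstream in replicate 1 and 241 bp upstream in replicate 2. Its IDR summit lay 234 bp upstream.

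The first autosomal genes ranked lower than the leading ones on X. F47G6.t1 for tRNA-Arg (I, 1447138 to 1447210) had signals of 32.4 and 17.0 (ranks 269 and 473), and M01E5.t1 for tRNA-Lys (I, 13297673 to 13297745) had 26.6 and 16.6 (ranks 433 and 534). These were the 2 autosomal genes with an IDR peak. C37A2.t1 for tRNA-Cys followed with 22.5 and 19.6 (ranks 746 and 276). W09G10.t1 for tRNA-His on II had 17.7 and 16.7 (ranks 2030 and 522), and both summits were inside the gene. Y82E9BR.t1 for tRNA-Gly on III had 16.8 and 18.7 (ranks 2574 and 321). F44A2.t1 for tRNA-Ala on V had 16.7 and 15.1 (ranks 2647 and 834), and lay 38 bp from a protein-coding start. Ordered by the mean of the ranks in both lists, F47G6.t1 came after 6 genes on X.

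Over the 59 genes on X with a region in both lists, signals in replicate 1 ran from 8.05 to 196 with a median of 17.2 (quartiles 11.2 and 28.6). The 47 autosomal genes ran from 7.94 to 32.4 with a median of 13.7 (10.4 and 16.6). In replicate 2 the medians were 10.7 on X (quartiles 7.34 and 14.6) and 8.50 on autosomes (6.42 and 11.9). The ranges overlapped in both lists, and the upper quartile was higher on X in both. The median rank was 2293 on X and 6231 on autosomes in replicate 1, and 3971 and 8886 in replicate 2. These values cover only genes with a region in both lists. Counted by region over each whole list, regions at tRNA genes had medians of 13.6 on X and 11.6 on autosomes in replicate 1, and 8.70 and 7.04 in replicate 2. Regions away from tRNA genes had medians of 10.6 on X and 10.6 on autosomes in replicate 1, and 7.07 and 7.08 in replicate 2. Autosomal regions at tRNA genes thus had no higher median than other autosomal regions in replicate 2. No test was made on these signals, since genes are not replicates of a condition.

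**Figure D3:**
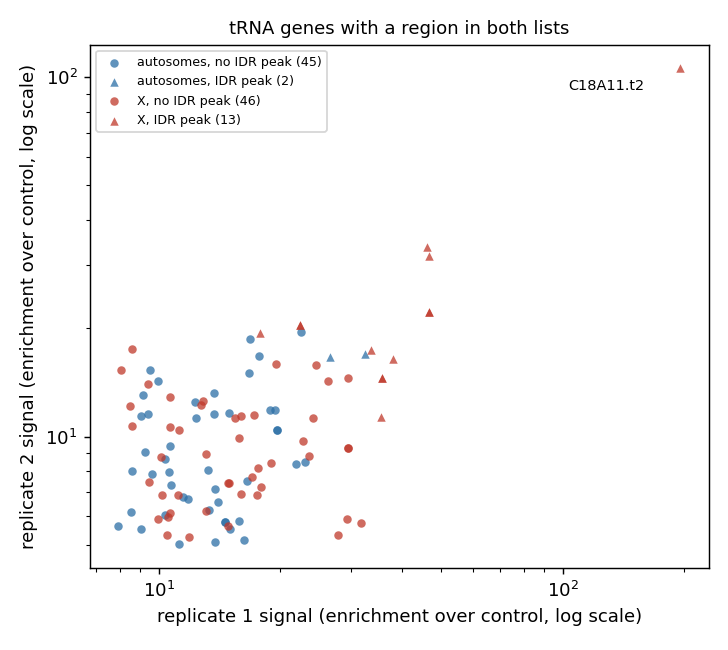
Signal of the strongest region at each of the 106 tRNA genes with a region in both lists, replicate 1 against replicate 2 (log axes, enrichment over the control on the scale of each list). Each point is a gene, red on X and blue on autosomes, with triangles for the 15 genes at an IDR peak. C18A11.t2 stands alone at 196 and 106, and the other genes lie below 50 in replicate 1.

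Agreement between the replicates was as follows. Of the genes on X with a region in replicate 1, 59.0% also had one in replicate 2, and 62.1% the other way round. On autosomes these shares were 42.7% and 50%, and these shares were not tested. Of the 3005244 windows of 72 bp on X within reach of a replicate 1 summit, 770486 were so in both lists. On autosomes it was 3501448 of 13437708. For protein-coding starts with a replicate 1 region, 117 of 453 on X and 1017 of 3205 on autosomes had one in both lists. For snoRNA genes it was 3 of 9 and 63 of 120. At tRNA genes, the strongest summits of the lists lay within 150 bp of each other at 42 of the 59 on X (71.2%). On autosomes it was 28 of the 47 (59.6%), and the median distances were 99 and 122 bp. Membership already places both summits within 250 bp of the gene, so unrelated summits would often lie close too. Spearman's rho of the signals across genes was 0.403 on X (59 genes) and 0.284 on autosomes (47 genes), and genes that share a region count more than once in it. In all, 140 tRNA genes on X and 179 on autosomes had no region in either list.

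Summits gathered at the gene itself on X and on autosomes. In bins of 200 bp along the gene's strand, 17.0% of genes on X and 16.7% on autosomes had a replicate 1 summit in the bin just upstream of the 5′ end. The bin that starts at the 5′ end held 15.9% and 12.8%. In replicate 2 the upstream bin held 16.3% on X and 10.4% on autosomes, and the bin from 200 to 400 bp upstream 6.88% and 11.9%. Among genes with a region in both lists, the replicate 1 summit was upstream in 28 genes on X, inside in 11 and downstream in 20, and on autosomes in 25, 8 and 14. For the replicate 2 summit these counts were 34, 12 and 13 on X and 22, 6 and 19 on autosomes. Sequences with 100 bp of upstream flank are shown for a pair of genes named above, so that the summits given for them can be placed in or before the gene, with the flank in lower case and the gene in capitals.

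R11.t1 with flank, chrX:16209769-16209952, minus strand: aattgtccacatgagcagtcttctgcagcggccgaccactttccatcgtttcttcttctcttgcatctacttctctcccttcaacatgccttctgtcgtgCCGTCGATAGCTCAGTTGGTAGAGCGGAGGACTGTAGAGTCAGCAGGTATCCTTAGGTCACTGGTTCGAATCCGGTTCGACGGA
W02H3.t1 with flank, chrX:11095573-11095754, plus strand: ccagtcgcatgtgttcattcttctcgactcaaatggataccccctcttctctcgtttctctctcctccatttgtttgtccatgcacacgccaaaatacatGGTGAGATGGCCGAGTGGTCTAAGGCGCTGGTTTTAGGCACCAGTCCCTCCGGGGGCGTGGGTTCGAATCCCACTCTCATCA

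**Figure D4:**
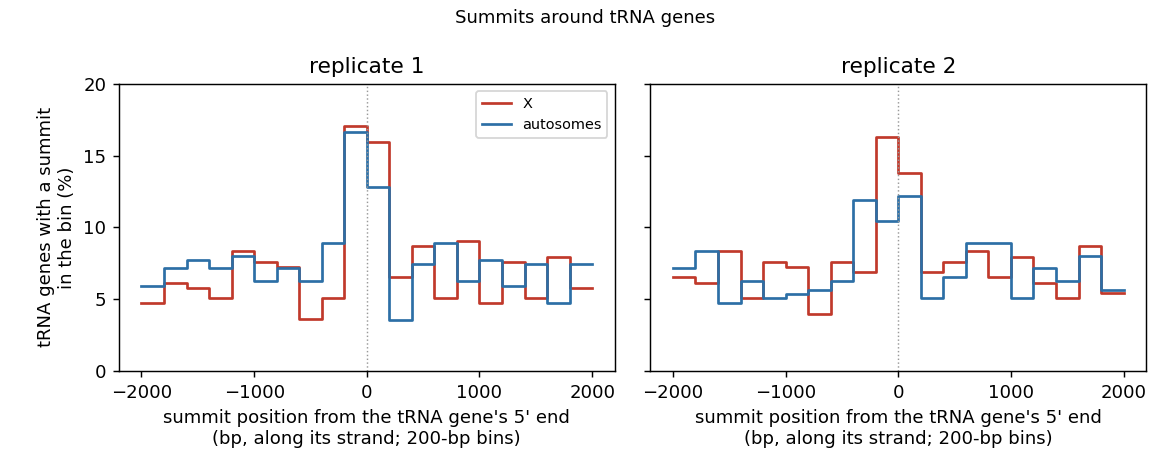
Percent of tRNA genes on X (red) and autosomes (blue) with a summit in each bin of 200 bp, from 2000 bp before to 2000 bp after the gene's 5′ end along its strand, for each replicate. The bins beside the 5′ end hold up to 17.0% on X, and the bins more than 400 bp away hold no more than 9.06%.

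Among genes of the same sequence, some had a region and others had none. The 612 genes had 200 different sequences, the commonest in 29 copies. C18A11.t2 had 9 identical copies elsewhere, all on X, of which 2 had a region in both lists, 5 had none and 0 had an IDR peak. R11.t1 had 5, all on X, of which 1 had a region in both lists and 2 had none. Of the 14 other copies of R04A9.t1, 2 had a region in both lists and 8 had none. Of the 28 other copies of M02F4.t1, these counts were 5 and 16. Over all 612 genes, 106 had a region in both lists and 319 had none, and no difference of the copies from these shares was tested. F44A2.t1 was the only copy of its sequence.

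The comparison was repeated with only the sequences found on X and on autosomes. Their genes were pooled and not matched by sequence, so the mix of sequences can differ between X and autosomes. There were 43 such sequences, with 185 genes on X and 223 on autosomes. In replicate 1 a region lay at 37.3% on X and 39.0% on autosomes, and in replicate 2 at 37.3% and 30.5%. Both lists held one at 24.3% and 17.5%, and the IDR list at 11 genes (5.95%) and 2 genes (0.897%). The order in replicate 1 was thus the opposite of that over all genes (odds ratio 0.930), and in the other lists the share was larger on X. For replicate 1, replicate 2 and both lists the Fisher's exact adjusted p was 0.759, 0.257 and 0.257.

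RefSeq gave the amino acid carried for all but 5 of the 612 genes. Genes with a region in both lists came from all of these tRNA kinds but tRNA-Trp, which had 0 of 12. The share was 12 of 34 for tRNA-Ala, 11 of 46 for tRNA-Lys, 10 of 55 for tRNA-Gly, 9 of 42 for tRNA-Pro and 5 of 44 for tRNA-Arg. Some kinds differed in their counts on X and on autosomes. For tRNA-Leu it was 6 of 17 on X and 1 of 22 on autosomes, for tRNA-Glu 5 of 23 and 1 of 18, and for tRNA-Ala 3 of 13 and 9 of 21. The only gene for tRNA-Sec, which inserts selenocysteine, is on an autosome and had a region in both lists. These kinds were chosen after their values were seen, and the numbers are too small for a comparison.

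The surroundings of tRNA genes differed between X and autosomes. On X 180 of the 276 genes (65.2%) were intergenic, 95 in introns of protein-coding genes and 1 in an exon, whereas on autosomes 139 of 336 (41.4%) were intergenic, 188 in introns and 9 in exons. A protein-coding start lay within 1000 bp of 24.3% on X and 36.9% on autosomes. Another tRNA gene lay within 500 bp of 39.1% and 18.5%. For genes with no protein-coding start within 1000 bp, a region in both lists was found at 44 of 209 on X (21.1%) and 25 of 212 on autosomes (11.8%; odds ratio 1.99; Fisher's exact adjusted p = 0.0365). Outside protein-coding gene bodies it was 40 of 180 (22.2%) and 20 of 139 (14.4%), with an odds ratio of 1.70 (Fisher's exact adjusted p = 0.205). For genes with no protein-coding start within 1000 bp, the odds ratio was 1.16 in replicate 1 and 1.43 in replicate 2. Neither passed the threshold (Fisher's exact adjusted p = 0.535 and 0.167).

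Repeated sequence took a similar share on X and on autosomes. A median of 90.3% of the words of 36 bases in the gene and its 250 bp flanks on X occurred once in the genome, and 90.7% on autosomes. Less than 50% were unique in 6 genes on X and 3 on autosomes, and none of these had a region in either list. Without them the odds ratio for both lists was 1.70 (Fisher's exact adjusted p = 0.0409). Since they had no region and more of them were on X, leaving them out could only raise the ratio. The lower p is therefore no check on repeated sequence.

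For the other small RNA genes, the share with a region in both lists was not higher on X. Among snoRNA genes a region in both lists lay at 3 of 33 on X (9.09%) and 63 of 313 on autosomes (20.1%), and an IDR peak at 0 of 33 and 16 of 313. These classes were not tested. Among miRNA genes the counts for both lists were 6 of 74 (8.11%) and 18 of 187 (9.63%). In the pooled list the order for miRNA genes was the opposite, with 7 of 74 on X (9.46%) and 14 of 187 on autosomes (7.49%). For snoRNA genes that list had 1 of 33 and 69 of 313. For snRNA genes the counts for both lists were 0 of 3 and 21 of 126, too few on X to compare. On autosomes an IDR peak lay at 10 of 126 snRNA genes (7.94%). None of 20 rRNA genes, all on autosomes, had a region in either list. Unique sequence was not measured for rRNA genes, so whether a region could be called there is unknown.

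Genes for the machinery that makes and processes tRNA are all autosomal in the list used. Of 19 genes for RNA polymerase III, its factors and tRNA processing and export, 4 had a summit within 250 bp of the start in replicate 1, 5 in replicate 2 and 3 in both. Over all autosomal protein-coding starts the shares were 18.6%, 17.4% and 5.90%, and with so few genes no difference from them was tested. The strongest was rpac-19, a subunit shared by RNA polymerases I and III, with signals of 26.8 and 21.5 (ranks 428 and 185) and an IDR peak of 47.0. The others in both lists were rpc-1, the largest subunit of RNA polymerase III (11.2 and 20.2), and nsun-2, a tRNA methyltransferase (8.84 and 8.66). The genes for TFIIIC (tftc-1, tftc-3 and tftc-5), brf-1 of TFIIIB and the repressor mafr-1 had none in either list.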

How the data were processed

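Region lists in ce11 (WBcel235) were used. The authors' regions come, per the labels' file descriptions, from calling against a control alignment, once per library and once with both joined, and the IDR list keeps the pooled regions past a threshold. No source used here gives caller, aligner or threshold. The deposited signal of a region is read as the authors' enrichment over the control, on the scale of its own list. Read depth is unknown, so precision is limited by the number of genes.

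Gene models were Ensembl release 115 and tRNA names and amino acids RefSeq, matched for 612 of 612 nuclear genes. The 22 mitochondrial tRNA genes were left out. Summits were matched to genes by scripts in Python (3.11.15) that used pandas (2.3.3) and NumPy (2.4.6). SciPy (1.17.1) gave the tests and matplotlib (3.10.9) the plots. The strongest region counted where a gene had several. X was compared with autosomes by the two-sided Fisher's exact test, with Benjamini-Hochberg adjustment over 3 comparisons (replicate 1, replicate 2 and both lists). The procedure was tested on simulated data with genes and comparisons drawn independently. The simulation did not cover genes that share a region, or that the comparison for both lists is built from the single lists. Copies of the gene were compared by whole sequence, and uniqueness by words of 36 bases. For a setting that gives 1 comparison its p took the place of the one for both lists in that adjustment. Named genes are the first 10 on X and the first 6 on autosomes by mean rank, and all at an IDR peak. The members, lists and tests were chosen with earlier results of these data known, among them that most IDR peaks at tRNA genes lie on X. The ce10 lists were not used.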

Additional observations from a re-analysis of the deposited data

How the results depend on the processing

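Of 45 alternative values of the odds ratio for a region, X against autosomes, 44 lay above 1. All are recounts of the same genes and libraries and are not independent. The value below 1 was for replicate 1 with genes of sequences found on X and on autosomes, at 0.930, and the cause was not tested. There, replicate 2 gave 1.36 and both lists 1.52. For both lists the ratio of 1.67 just missed the threshold. It passed at 1.70 with genes of mostly unique words, where the genes left out had no region and leaving them out could only raise it. It also passed at 2.11 with summits within 100 bp, 1.99 with genes merged to loci and 1.99 away from protein-coding starts. With summits of both lists within 150 bp of each other it passed at 1.97. It was 1.42 within 500 bp, 1.61 by interval overlap, 1.70 outside gene bodies and 1.64 without C18A11.t2, none past the threshold. Without replicate 1 or replicate 2 it ran from 1.17 to 1.35, which are the main values of the single lists. Stronger regions gave 2.29 (10000 highest), 2.69 (3000 highest), 5.49 (1000 highest), 5.01 (1000 highest, loci) and 2.41 (pooled), all past it. These lists share libraries, and the IDR pattern was known beforehand. The IDR list gave 8.25 and, by locus, 7.54. That is the pattern that prompted the comparison, so these values are not set against the threshold. In replicate 1 it passed at 2.69 (3000 highest), 5.96 (1000 highest) and 5.80 (1000 highest, loci). In replicate 2 it passed at 1.92 (10000 highest), 3.28 (1000 highest) and 3.26 (1000 highest, loci), but not at 1.74 (3000 highest). The 3000 highest, the 150 bp limit between summits, the 2 combinations of a shorter list with loci, the restriction to shared sequences and leaving out C18A11.t2 were chosen after the data were seen. Why the ratio depends on the signal was not tested. No paired analysis was possible because both libraries form 1 group.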
